A study of Mus musculus with 5 samples.

Results

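The cells described here are the Dpp4 and Pi16 progenitor stromal cells of mouse inguinal white adipose tissue, a subcutaneous fat depot, caught as single cells at 5 postnatal ages. A cell was taken first as stromal when Col1a1, Col1a2 and Col3a1 gave at least 2% of its unique molecular identifiers (UMIs, counted mRNA molecules), with at least 1 UMI of Pdgfra and none of Ptprc or Pecam1. It was then a member when the summed UMIs of Dpp4, Cd55, Anxa3 and Akr1c18 (D) reached 5, and were at least 2 times those of Lpl, Ggt5, Vcam1, Adam12 and Col15a1 (I) and at least 2 times those of F3, Fmo2, Hhip and Gdf10 (F). This gave 4602 members among 11201 gated stromal cells and 46684 cells in all. The other 6599 gated cells are called other Pdgfra+ cells. Among these, the same limits turned towards I gave 3789 ICAM1-rule cells, turned towards F gave 401 F3-rule cells, and 2409 cells met no rule.

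The study followed the fat depot of male C57BL6/J mice through weaning. The stromal vascular fraction was released with collagenase at 7, 14, 18, 21 and 28 d after birth, and cells of 2 mice from 2 litters were pooled into 1 library per age. The labels name no genetic change or treatment, and the lymph node of the depot was not deliberately taken out. Each age is therefore 1 library, so nothing between ages could be tested, and every interval between ages covers counting error only. The libraries held 15459, 5768, 6312, 11522 and 7623 cells and 128841585, 50432106, 42690542, 126849628 and 60812002 UMIs at 7, 14, 18, 21 and 28 d, and every series of 5 values below follows this order of ages.

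Pdgfra marks mesenchymal cells of connective tissue, including those that can become fat cells. In subcutaneous fat, stromal cells with surface DPP4 and the secreted peptidase inhibitor PI16 lie in the reticular connective tissue around the lobules and are known as a progenitor pool that can give rise to ICAM1+ preadipocytes, which are closer to the fat cell. Cells with F3 (CD142) and Clec11a have been described as a regulatory stromal population. DPP4 is a membrane dipeptidase that cleaves peptide hormones, CD55 shields cells from complement, ANXA3 is a calcium-dependent phospholipid-binding protein, and AKR1C18 is a steroid dehydrogenase.

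The members were chosen by the UMIs of these 13 genes in the same cells, so their levels are given as a description with no test. In members, Dpp4 came to 443, 502, 492, 411 and 477 CPM (UMIs of the gene over all UMIs of 1 class in 1 library, times 1000000), Cd55 to 541, 418, 306, 305 and 349.5 CPM and Akr1c18 to 1149.9, 1252, 1179, 1127 and 719 CPM. Anxa3 came to 600.2, 692, 768, 1192 and 1505 CPM. Anxa3 was thus highest in the 2 oldest libraries, Akr1c18 lowest at 28 d, and Dpp4 within a narrow range across ages. All 4 genes had a UMI in 3992 members (86.7%), 3 of them in 539, 2 in 68 and 1 in 3. The median D was 35.00, 42.00, 36.00, 55.00 and 46.00 UMIs, far above the limit of 5. At the edge of the rule, 23 members held exactly 5 UMIs of D, of which 78.3% had a Pi16 UMI, and 20 gated cells that met both ratios held 4, of which 90.0% had one. The cells with 4 or 5 UMIs of D were shallow, with a median of 3316 and 4219 UMIs per cell.

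Pi16 gave the cells their name but took no part in the rule. It came to 1351, 2661, 2519.8, 1281 and 2939 CPM in members and 91.9, 254, 330.0, 209.7 and 479 CPM in the other Pdgfra+ cells. The 2 classes did not overlap, and within members the 7 d and 21 d libraries were the lower ones. In cells thinned to 5000 UMIs each, 91.9, 99.2, 99.01, 95.7 and 98.7% of members had a Pi16 UMI (96.3, 99.7, 99.5, 99.3 and 99.7% before thinning). The same share was 14.2, 19.2, 22.2, 33.4 and 34.9% in other Pdgfra+ cells and 2.37, 4.22, 2.95, 26.5 and 7.46% in T cells with at least 2 UMIs of Cd3d, Cd3e and Cd3g (unthinned median depth 18721 UMIs in members and 4066.5 in T cells at 21 d). The T cell share at 21 d rests on the 872 of 3250 T cells that reached 5000 UMIs. It lay nearer to that of other Pdgfra+ cells than in any other library, and the part of free RNA and of doublets in it was not tested. Members stood above both at every age. On GRCm38, Pi16 (ENSMUSG00000024011.17) lies on chromosome 17 from 29317680 to 29330593 and Dpp4 (ENSMUSG00000035000.8) on chromosome 2 from 62330073 to 62412231.

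Members were a larger part of the stromal cells at later ages. Their shares of gated cells were 19.01, 37.4, 39.9, 53.2 and 52.6%, with exact binomial 95% limits of 17.5, 35.2, 36.9, 51.8 and 49.6% below and 20.5, 39.7, 42.9, 54.7 and 55.6% above. The 7 d library stood lowest, those of 14 and 18 d overlapped, and those of 21 and 28 d overlapped. Members were also deeper than the other Pdgfra+ cells, with medians of 13738, 15167, 14285, 18721 and 15926 against 11572, 11644, 11106, 15244 and 13552 UMIs per cell. When each cell was thinned to 8000 UMIs and the rule applied again, the shares were 19.4, 38.2, 41.7, 50.4 and 54.3%. Levels of the rule's own genes also differed between ages outside the members. In other Pdgfra+ cells Anxa3, part of D, came to 90.8, 79.2, 85.9, 215 and 250 CPM. Lpl, part of I, came to 941, 2112, 2091, 2107 and 2200 CPM there. The part of such levels in the shares was not tested. Of all cells of the libraries, members were 3.32, 11.8, 6.70, 20.9 and 7.58%, a share that also moves with the number of immune cells.

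**Figure D1:**
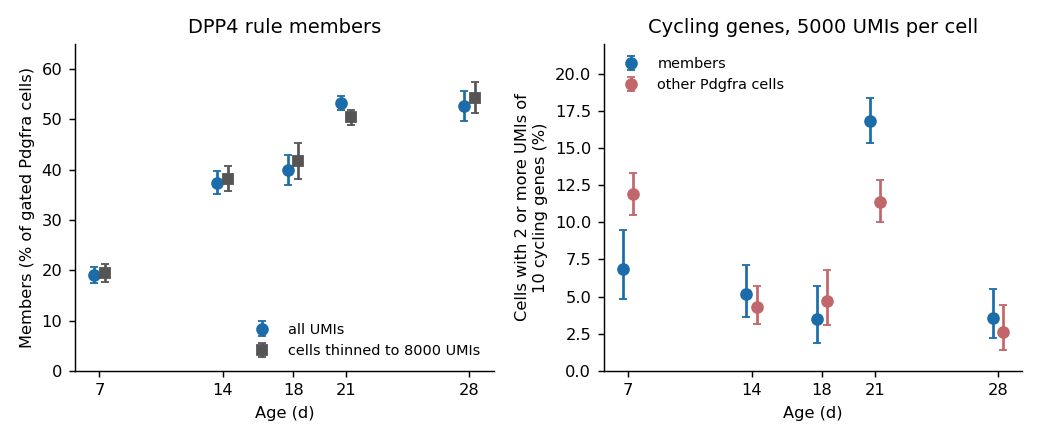
Left, share of gated Pdgfra+ cells (%, y axis) that met the DPP4 rule at each age (d, x axis), with all UMIs (blue circles) and after thinning to 8000 UMIs (grey squares). Right, share of cells with at least 2 UMIs of 10 cycling genes at 5000 UMIs per cell, in members (blue) and other Pdgfra+ cells (red). Bars are 95% exact binomial intervals. Member shares were lowest at 7 d, and the cycling share of members was highest at 21 d.

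To ask which genes outside the rule set members apart from the other Pdgfra+ cells, UMIs were summed per library and class and compared within libraries by edgeR's quasi-likelihood test with Benjamini-Hochberg adjustment. A gene counted as higher or lower at an adjusted p under 0.05 and at least 2-fold. The 19 genes of the rule were left out. Since the classes were cut from the same cells, these tests describe which genes go along with the rule's genes. Of 12137 genes tested, 595 (4.9%) were higher in members and 962 (7.93%) were lower. Without cells holding 2 or more UMIs of marker lists of other cell types, which removed most cells, the counts were 376 and 544.

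The largest differences towards members included several secreted proteins. Krtdap, a secreted protein known from differentiating keratinocytes, came to 384, 359, 262, 49.1 and 95.2 CPM in members and 17.3, 12.2, 4.06, 2.18 and 2.99 CPM in other Pdgfra+ cells (log2 fold 4.94 ± 0.20 SE, n = 5 libraries, edgeR's quasi-likelihood adjusted p = 2.98e-06). Members were higher in every library, and their own level was several times lower at 21 and 28 d than before. Sbsn (suprabasin), another secreted epidermal protein, came to 308, 398, 379, 198 and 354 CPM against 21.5, 26.5, 23.4, 22.4 and 22.8 CPM (log2 fold 3.84 ± 0.14). Its member level was lowest at 21 d. Bmp7, a BMP ligand, came to 62.8, 119, 102, 73.6 and 74.9 CPM against 3.39, 6.59, 5.60, 6.08 and 4.41 CPM (log2 fold 4.09 ± 0.11). Wnt2 and Wnt10b, 2 WNT ligands, had log2 folds of 3.04 ± 0.10 and 3.48 ± 0.12. The classes did not overlap for any of these genes. On GRCm38, Bmp7 (ENSMUSG00000008999.7) lies on chromosome 2 from 172868012 to 172940321 and Wnt2 (ENSMUSG00000010797.6) on chromosome 6 from 17988940 to 18030585.

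The rest of the leading genes had a mix of known roles. Gap43, a growth cone protein of neurons, came to 487, 567, 442, 399.5 and 165 CPM in members against 78.4, 66.8, 42.6, 43.9 and 11.4 CPM. Its level in members was lowest at 28 d. Il18, an interleukin-1 family cytokine, came to 75.02, 76.7, 106, 179 and 139 CPM against 5.59, 6.06, 9.38, 30.7 and 22.9 CPM and was highest in both classes at 21 and 28 d. Aldh1a3, which makes retinoic acid, had a log2 fold of 3.16 ± 0.10, the nuclear receptor gene Rorb 3.36 ± 0.14, and Limch1, a regulator of non-muscle myosin, 3.18 ± 0.11. Akr1c14 (log2 fold 3.11 ± 0.08) is of the same aldo-keto reductase family as Akr1c18, whose UMIs chose the cells, and shared reads between them were not checked.

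The leading genes on the opposite side included Mgp and the lipid-handling genes Apoe, Fabp4 and Cd36. Mgp, matrix Gla protein, an inhibitor of calcification, came to 24.5, 6.38, 7.90, 15.5 and 19.96 CPM in members against 604, 1647, 1966, 940.2 and 1254 CPM (log2 fold -6.30 ± 0.52, edgeR's quasi-likelihood adjusted p = 3.57e-05). Apoe, the lipid carrier, came to 114, 14.2, 14.2, 33.5 and 23.7 CPM against 787, 1352, 2032, 1343 and 1389 CPM (log2 fold -5.46 ± 0.62). Fabp4, the fatty acid binding protein of fat cells, came to 83.1, 8.02, 2.14, 26.7 and 48.5 CPM against 359.5, 366, 557, 1381 and 1359 CPM (log2 fold -4.92 ± 0.68). For all 3 genes the 7 d library was the highest among members, although every member value lay below every value of the other class. The prolactin receptor gene Prlr (-4.90 ± 0.21), the fatty acid transporter Cd36 (-5.08 ± 0.42), the metalloreductase Steap4 (-5.18 ± 0.29) and the chemokine Cxcl14 (-4.86 ± 0.23) were also lower. Cxcl14 came to 1.37, 9.80, 21.7, 45.5 and 181 CPM in the other Pdgfra+ cells, and in members to 0.139 CPM at 7 d and 5.20 CPM at 28 d, so that it was higher at 28 d than at 7 d in both classes. Gucy1a1, a subunit of the nitric oxide receptor, Sparcl1, a matricellular protein, Tspan11 and Car3, a carbonic anhydrase of fat cells, were further leading genes, with log2 folds of -5.28, -5.03, -5.16 and -4.84.

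**Figure D2:**
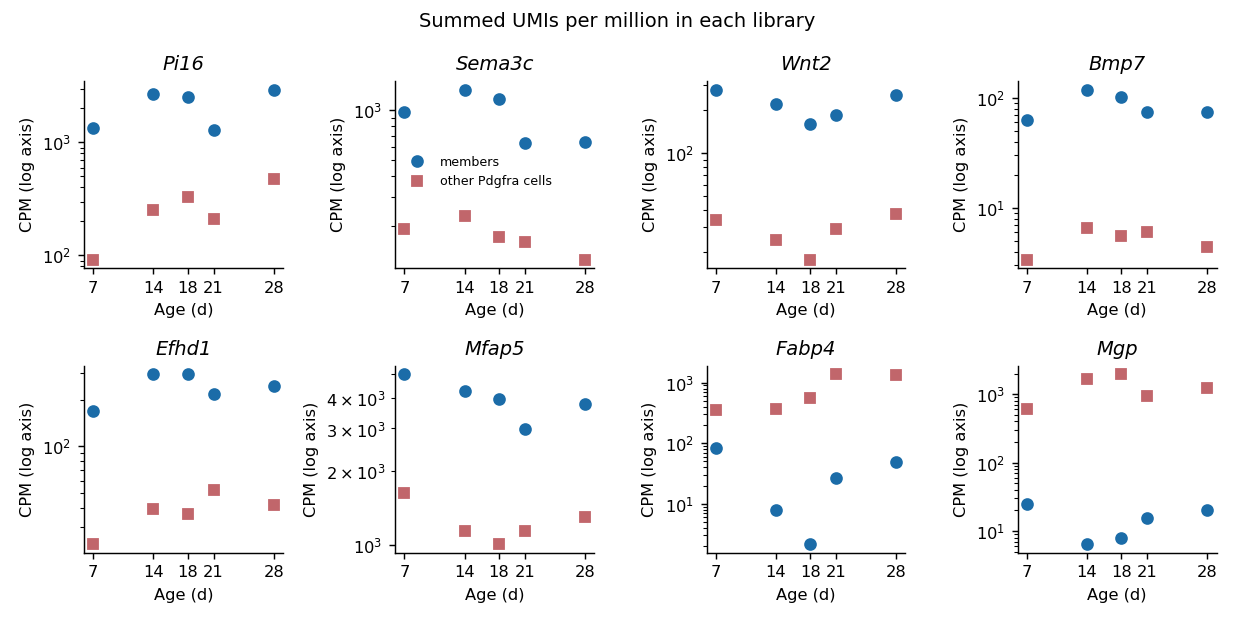
CPM (log y axis) of 8 genes against age (d) in each library, in members (circles) and other Pdgfra+ cells (squares), 1 library per age. Members lay above the other class at every age for Pi16, Sema3c, Wnt2, Bmp7, Efhd1 and Mfap5, and below it for Fabp4 and Mgp.

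A list of 30 genes described for DPP4+ progenitors in this and other studies, chosen with earlier results of these data known, moved mostly with the rule. Of its 30 members, all tested, 23 were higher and 1 was lower, beside 4.9% higher and 7.93% lower of all genes tested. The median log2 fold was 1.75 against 0.01 over all genes tested. Sema3c, a secreted guidance factor, came to 970.2, 1324, 1155, 632 and 645 CPM against 193, 232, 174, 161 and 127 CPM (log2 fold 2.46 ± 0.11). Its member level was lower at 21 and 28 d than at the other ages. Efhd1, a mitochondrial calcium-binding protein, came to 168, 293, 293, 218 and 247 CPM against 23.2, 39.4, 36.5, 52.2 and 41.9 CPM and was lowest at 7 d in both classes. Cd34, the stem cell sialomucin, came to 1026, 1439.6, 1239, 1184 and 1204 CPM against 367, 534, 441, 567 and 593 CPM (log2 fold 1.38 ± 0.10). Smpd3, a neutral sphingomyelinase, had an age pattern of its own, with 36.2, 121, 423, 605 and 262 CPM in members, highest at 21 d, and 7.49, 31.7, 79.4, 173 and 52.5 CPM in the other class, highest at 21 d as well. Its call was lost without the library as a block. The 6 genes that met neither call were Ly6a (0.98 ± 0.12), Heg1 (0.98 ± 0.11), Sfrp4 (0.84 ± 0.07), Clec3b (0.78 ± 0.09), Il33 (0.71 ± 0.25) and Tppp3 (0.42 ± 0.11). Emb, embigin, was the 1 lower gene, at 8.91, 0.966, 1.32, 3.83 and 2.55 CPM in members against 11.3, 4.94, 4.34, 17.4 and 12.4 CPM, and its call was lost without the library as a block.

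Among 18 surface molecules, 8 were higher and 4 lower, beside 4.9% higher and 7.93% lower of all genes tested. Il13ra1, a receptor subunit for interleukin-13 and interleukin-4, came to 91.4, 159.7, 159, 151 and 123 CPM in members against 18.6, 24.2, 21.4, 27.6 and 19.6 CPM (log2 fold 2.67 ± 0.10). Tek, the angiopoietin receptor TIE2, came to 106, 179.8, 186, 94.6 and 151 CPM against 23.4, 43.9, 39.6, 37.4 and 40.7 CPM (log2 fold 2.00 ± 0.13). Both genes were separated in every library. The coreceptor Cd248 (1.62 ± 0.11), Ly6c1 (1.34 ± 0.12), Nt5e, the ectonucleotidase CD73 (1.38 ± 0.18), Cd24a (1.33 ± 0.13) and Procr, the protein C receptor (1.73 ± 0.31), were higher as well. Pdgfrb (-1.34 ± 0.18), Cd9 (-1.88 ± 0.23), Adra2a (-3.51 ± 0.50) and Prlr were lower. The call of Procr was lost without the library as a block, and in members it came to 25.2, 50.9, 86.2, 72.1 and 145 CPM, highest at 28 d.

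WNT proteins signal through Frizzled receptors and LRP coreceptors, R-spondins amplify the signal, and secreted SFRP and DKK proteins blunt it. BMPs and TGF-βs are related ligands of paired kinase receptors, held in check by binding proteins such as noggin and chordin. Both families are known to steer preadipocytes towards or away from fat cell formation. Of 11 WNT ligands and R-spondins tested, 6 were higher in members and 3 lower (median log2 fold 1.14). Over all genes tested, 4.9% were higher and 7.93% lower. Wnt2 came to 280.3, 223, 159.7, 186 and 255 CPM in members against 33.7, 24.2, 17.8, 29.3 and 37.01 CPM. Rspo3 came to 40.2, 33.1, 30.6, 5.53 and 6.90 CPM against 2.24, 2.84, 2.66, 1.84 and 1.14 CPM (log2 fold 3.24 ± 0.35), and its member level was several times lower at 21 and 28 d than before. Wnt11 (1.72 ± 0.09), Wnt5b (1.62 ± 0.11) and Wnt2b (1.14 ± 0.18) were higher at low levels. Wnt6, Rspo1 and Wnt4 were lower at low levels, and the calls of Wnt6, Wnt4 and Wnt2b were lost without the library as a block. Wnt2b also fell below 2-fold without cells with a UMI of a defining marker of another type. Wnt5a, the second most abundant ligand of the list in members, did not pass (-0.27 ± 0.13, edgeR's quasi-likelihood adjusted p = 0.14).

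Of 15 WNT receptors and coreceptors, 10 met neither call, 2 were higher and 3 lower (median log2 fold -0.11). These counts and those below stand beside 4.9% higher and 7.93% lower of all genes tested. Fzd4 was lower, at 45.5, 35.2, 45.4, 34.6 and 36.6 CPM in members against 112, 188, 162, 136 and 97.5 CPM, as were Lrp5 (-1.21 ± 0.11) and Ror1 (-1.02 ± 0.15). Fzd6 (2.31 ± 0.29) and the R-spondin receptor Lgr4 (1.16 ± 0.09) were higher. Among 7 secreted or membrane inhibitors tested, Sfrp2 came to 723, 1181, 1709, 1638 and 2012 CPM in members against 223, 361, 642, 799 and 1077 CPM (log2 fold 1.43 ± 0.13), with lower levels at 7 d than later in both classes. This call was lost without the library as a block. Apcdd1, a membrane inhibitor, was higher too (1.49 ± 0.26). Sfrp1 (-1.35 ± 0.11) and Dkk3 (-1.44 ± 0.31) were lower. The calls of Dkk3 and Ror1 were lost without the block, and that of Dkk3 also without cells holding 2 or more UMIs of other types. Ror1 also fell below 2-fold without the 18 d or the 28 d library. Of 10 genes known to respond to WNT signals or to modulate it inside the cell, 1 was higher and 3 lower. Axin2, the usual readout of the β-catenin branch, came to 4.58 CPM in members and 3.71 CPM in the other class on average (log2 fold 0.40 ± 0.17, edgeR's quasi-likelihood adjusted p = 0.1). Dact2, an intracellular inhibitor, was the higher gene, at 10.6, 119.9, 72.1, 9.79 and 23.4 CPM in members, with the 14 and 18 d libraries well above the rest, against 0.913, 7.18, 3.92, 0.968 and 0.996 CPM.

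In the TGF-β and BMP family, 5 of 12 ligands tested were higher, 3 lower and 4 neither (median log2 fold 0.91). These counts and those below stand beside 4.9% higher and 7.93% lower of all genes tested. After Bmp7, Bmp6 (3.41 ± 0.17), Bmp4 (1.96 ± 0.36), Bmp2 (1.93 ± 0.09) and Tgfb2 (1.49 ± 0.08) were higher. Bmp4 came to 54.8, 50.2, 42.8, 22.8 and 43.3 CPM in members against 6.01, 8.76, 10.5, 8.11 and 33.6 CPM, so that the classes lay closest at 28 d. Inhba, the activin A subunit (-3.45 ± 0.29), Gdf15 (-2.72 ± 0.37) and Tgfb1 (-1.72 ± 0.10) were lower. Of 11 receptors, Tgfbr2 alone was higher, at 241, 479, 428, 337 and 441 CPM against 120.1, 216, 169.6, 159.9 and 198 CPM (log2 fold 1.22 ± 0.07), and the activin receptor gene Acvr2a alone was lower (-2.30 ± 0.11). Of 14 binding proteins and inhibitors, 2 were higher and 5 lower. Nog, noggin, came to 0.130 CPM in members on average against 6.37 CPM. The BMP antagonist Chrd, chordin (1.24 ± 0.10), and Fstl1 (1.12 ± 0.08) were higher. Of 9 genes known to respond to these ligands, 5 were lower and 4 met neither call. Among the lower ones were the BMP targets Id1, at 21.02, 1.64, 2.30, 2.72 and 1.17 CPM against 99.7, 15.2, 7.42, 16.3 and 11.5 CPM, and Id4 (-2.37 ± 0.27), and the TGF-β targets Tgfbi (-1.38 ± 0.08) and Ctgf (-2.49 ± 0.41). Summed over the 9 response genes, members held 5309, 5014, 5325, 5422 and 3401 CPM against 6365, 5143, 3702, 4079 and 3053 CPM. The sum was thus lower in members at 7 and 14 d and higher at 18, 21 and 28 d. The calls of Id1 and Gdf15 were among those lost without the library as a block.

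Growth factor binding differed by member of the family. Of 15 FGF and IGF genes tested, 4 were higher and 5 lower, beside 4.9% higher and 7.93% lower of all genes tested. Igfbp5 came to 1314, 2947, 2860.5, 2096 and 2485 CPM in members against 143, 481, 675, 1084 and 994 CPM (log2 fold 2.11 ± 0.32), and Igfbp6 to 1930.2, 1755, 2231, 2485 and 3205 CPM against 599, 494, 591, 837 and 1298 CPM (log2 fold 1.74 ± 0.10). Igfbp7, in contrast, came to 286, 34.7, 55.1, 125 and 191 CPM against 2301, 1560.3, 1776, 1794 and 2867 CPM (log2 fold -4.15 ± 0.35), and Igfbp4 (-1.35 ± 0.31) was lower too, a call lost without the library as a block. All of these are secreted proteins that bind insulin-like growth factors or relate to them. The growth factor Igf1 itself was lower and came to 130.1, 161, 223, 428 and 217 CPM against 296, 735, 791, 851 and 489.7 CPM (log2 fold -1.39 ± 0.16) and was highest at 21 d in both classes. Fgf2 (1.27 ± 0.12) and, near the 2-fold line, Fgf18 (1.05 ± 0.07) were higher, and Fgf10, a known signal to preadipocytes, was lower (-1.82 ± 0.25). Fgf18 fell below that line without cells holding 2 or more UMIs of other types. It did so too without cells with a UMI of a defining marker of another type, and without the 28 d library.

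Matrix genes lay on both sides. The counts below stand beside 4.9% higher and 7.93% lower of all genes tested. Fbn1, fibrillin-1, the main microfibril protein, came to 3666, 4167, 3520.3, 2577 and 2617 CPM in members against 1077, 1119.6, 883, 1019 and 896 CPM (log2 fold 1.79 ± 0.11), and its partner Mfap5 to 5004, 4290.5, 3976, 2976 and 3777 CPM against 1637, 1139, 1006, 1142 and 1306 CPM (log2 fold 1.77 ± 0.10). Both were separated in every library. With Fbn2, Efemp1 and Emilin2 they made 5 higher genes of 17 tested for elastic fibres, against 5 lower ones, of which Mfap4 (-2.88 ± 0.41) had the largest fold, and elastin itself, Eln, met neither call (-0.27 ± 0.17). Of 10 fibrillar and associated collagens outside the rule, 9 met neither call (median log2 fold -0.43), and Col6a3 came to 659, 1069, 1113, 1173 and 1100.2 CPM against 1231, 2369, 2219.5, 1913 and 1652 CPM. Of 17 basement membrane genes, 7 were lower. Col4a1 came to 138, 31.2, 35.1, 34.4 and 57.01 CPM against 1181, 1519, 1502, 1101 and 1263 CPM (log2 fold -4.64 ± 0.36) and Col4a2 followed (-4.54 ± 0.35), whereas the laminin genes tested met neither call. Nid1, the linker protein nidogen-1, was the higher one (1.01 ± 0.07), at the 2-fold line and below it in 6 alternatives. Of 10 small proteoglycans, biglycan, Bgn (-2.99 ± 0.22), Fmod (-6.00 ± 0.36) and Podn (-1.70 ± 0.19) were lower and the other 7 met neither call, with decorin, Dcn, at 8199.8 and 9517 CPM on average.

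Hyaluronan is made by HAS enzymes from a sugar that UGDH provides. Of 8 genes of its metabolism tested, 3 were higher and 5 met neither call, beside 4.9% higher of all genes tested. Has1 came to 419, 109, 58.9, 256 and 156 CPM in members against 266, 48.6, 24.5, 146 and 82.9 CPM (log2 fold 1.02 ± 0.10), Has2 to 40.5 against 23.6 CPM on average (1.01 ± 0.16) and Ugdh to 574 against 285 CPM (1.12 ± 0.11). The folds of Has1 and Has2 sat at the 2-fold line and several alternatives put them below it, as the removal of cells with 2 or more UMIs of other types did for Ugdh and for Fbn2. Has1 was highest at 7 d and lowest at 18 d in both classes. In members its log2 ratio of 28 d over 7 d was -1.42, and -0.47 without cells holding 2 or more UMIs of other types. Among 18 matrix proteases and their partners, Pcsk6, a proprotein convertase, came to 150.5, 313, 278, 129 and 200.1 CPM against 33.4, 58.5, 47.3, 39.3 and 53.4 CPM (log2 fold 2.23 ± 0.13), and Adamts16 (3.54 ± 0.35), Adamts5 (1.22 ± 0.14) and Pcolce2 (1.31 ± 0.22) were higher as well. Mmp3, stromelysin-1, was lower, at 5.43, 3.87, 9.38, 55.5 and 80.6 CPM against 48.5, 169, 324, 610.0 and 712 CPM.

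Of 12 complement genes tested, 6 were lower in members and 6 met neither call (median log2 fold -1.11), with C4b at 16.8, 15.9, 23.5, 23.5 and 69.8 CPM in members against 31.8, 125, 212, 185 and 346 CPM, and C2, C1s1, C1ra and Cd59a among the others that were lower. C3 met neither call (-0.47 ± 0.17). The counts of this paragraph stand beside 4.9% higher and 7.93% lower of all genes tested. Of 19 chemokines, cytokines and decoy receptors, 3 were higher and 8 lower. Cxcl12, a retention signal for blood cells, came to 144, 128, 176, 153 and 67.9 CPM against 266, 506, 668, 473 and 523 CPM (log2 fold -1.78 ± 0.25). Ackr3, a scavenging receptor for the same chemokine, was higher, at 245, 494, 445, 454 and 495 CPM against 45.7, 126, 89.6, 174 and 157 CPM (log2 fold 2.02 ± 0.16), as were Il34, a ligand of the macrophage receptor CSF1R (2.84 ± 0.33), and Ackr4 (1.60 ± 0.23). Of 18 genes of fat cell formation tested, 7 were lower and 11 met neither call, with Pparg at 7.24, 1.64, 1.48, 3.87 and 2.12 CPM in members against 18.5, 20.96, 23.4, 27.9 and 20.8 CPM and Cebpa at 2.92, 5.51, 3.46, 3.52 and 4.67 CPM against 12.4, 25.1, 25.9, 24.5 and 17.9 CPM. The early regulators Ebf1 (0.29 ± 0.06), Ebf2 (0.23 ± 0.11) and Zfp423 (0.56 ± 0.10) met neither call.

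The other Pdgfra+ cells hold several kinds of stroma, so the members were also set against the 2 mirror classes. Of 11885 genes tested against ICAM1-rule cells, 719 (6.05%) were higher in members and 933 (7.85%) lower. Pi16 had a log2 fold of 5.15 ± 0.25, with 2150.3 CPM in members and 66.3 CPM in ICAM1-rule cells on average. Krtdap, Bmp7, Wnt10b, Gap43 and Rorb were the other leading genes towards members, with log2 folds of 6.33, 5.54, 5.35, 4.67 and 4.66. Olfm2, Apoe, Cd36, Fabp4 and Gucy1a1 were among the leading genes towards ICAM1-rule cells, with log2 folds of -6.43, -6.07, -5.80, -5.76 and -5.73. Of the 30 progenitor genes, 26 were higher and 1 lower in this comparison. Of 18 genes tested from a list described for ICAM1+ preadipocytes, 16 were lower in members and 2 met neither call (median log2 fold -4.46), and Pparg, the regulator of fat cell formation, averaged 3.27 CPM in members and 35.4 CPM in ICAM1-rule cells.

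Against F3-rule cells, which were few, 10710 genes were tested, of which 802 (7.49%) were higher in members and 865 (8.08%) lower. Rorb had no UMI in F3-rule cells of any library, so its level in members, 47.0 CPM over the pooled libraries, was at least 82.7-fold higher than the floor of 3 UMIs over the group. Limch1 had 2 UMIs in F3-rule cells, for a pooled ratio of 276 (95% CI 76.4 to 2281, counting error only), and Bmp7 had 3, for a ratio of 142 (95% CI 48.7 to 690.1). Efhd1, the calcium-binding protein, and Tek had log2 folds of 6.95 ± 0.18 and 6.87 ± 0.24. Fmod, fibromodulin, which shapes collagen fibrils, Mgp, Art4, Tmem204, Egflam and Foxs1 led towards F3-rule cells, with log2 folds of -8.71, -8.23, -8.86, -7.96, -7.65 and -7.28. F3-rule cells also held more of the markers of 2 other cell types, with 586, 215, 56.1, 36.6 and 104 CPM of the mural genes against 139.7, 19.8, 5.93, 8.19 and 23.4 CPM in members, and 583, 5.81, 3.24, 10.7 and 5.04 CPM of 6 mast cell genes against 43.7, 4.64, 2.63, 6.46 and 1.70 CPM. The difference in CPM was largest at 7 d, where 99 F3-rule cells were found, and without that library 849 genes were higher in members and 913 lower. Of the 30 progenitor genes, 29 were higher and 1 met neither call. Some genes sat on the other side of this comparison than of the one before. Dlk1, an imprinted inhibitor of fat cell formation, was higher in members than in F3-rule cells (2.29 ± 0.23) and lower than in ICAM1-rule cells (-4.16 ± 0.53). C3 was higher against F3-rule cells (3.11 ± 0.40) and met neither call against ICAM1-rule cells (-0.69 ± 0.17). The 2 comparisons share the member libraries, and the difference between them was not tested.

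Immediate early genes respond within minutes to stress or growth signals. Of 12 tested against the other Pdgfra+ cells, 9 were lower in members and 3 met neither call (median log2 fold -1.38). Over all genes tested, 7.93% were lower. The calls of Nr4a2, Nr4a1, Fosb, Ier2 and Egr1 were lost without the library as a block. Their log2 folds there were -2.50, -1.62, -1.50, -0.95 and -0.97, in this order. The call of Egr1 was also lost without the 14 d or the 18 d library, and that of Ier2 without the 18 d library. Fos came to 2369, 775, 627, 1457 and 1190.3 CPM in members against 3348, 4030.0, 3456, 3182 and 2824 CPM, and Junb to 990.0, 313, 248, 700.5 and 637 CPM against 2005, 1654, 1460.0, 2080.0 and 2018 CPM. The member level was lowest at 14 and 18 d, while the other class ranged from 2824 to 4030.0 CPM of Fos. Summed over the 12 genes, members held 12547, 3949, 2887, 7926 and 5958 CPM and the other class 16379, 16344, 13557, 16252 and 13719 CPM. A list of 10 NF-κB response genes had 3 lower genes and 7 that met neither call, and its sum moved with the library in both classes. It came to 9006, 305, 247, 1837 and 825 CPM in members and 8685, 969, 609, 2792 and 1263 CPM in the other class. The 7 d library was highest by several fold and the 18 d library lowest, and Cxcl1, a neutrophil chemokine, came to 2762, 55.9, 51.02, 514 and 133 CPM in members. These genes are known to be induced while tissue is dissociated, and handling of the 5 libraries cannot be told apart from age.

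**Figure D3:**
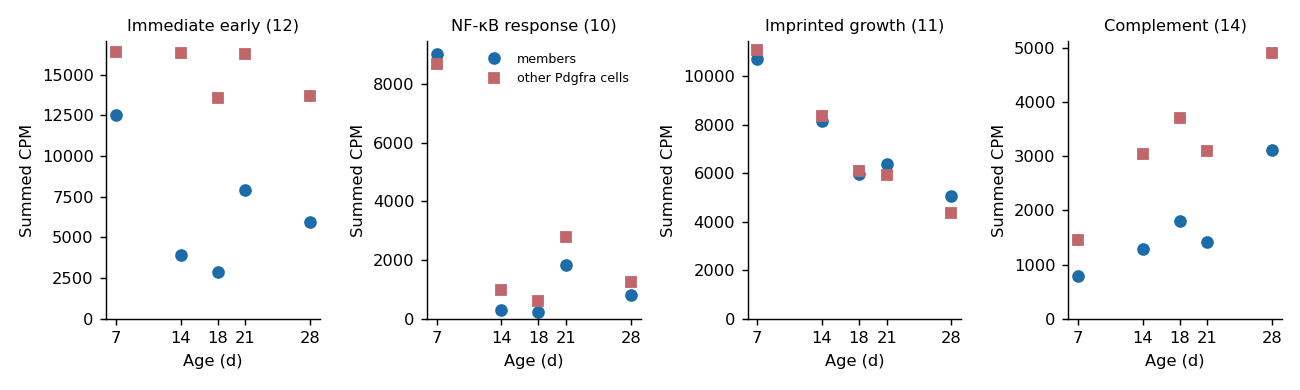
Summed CPM (y axis, from 0) of 4 gene lists against age (d) in members (circles) and other Pdgfra+ cells (squares), 1 library per age, with the number of genes in brackets. The immediate early sum lay lower in members at every age, the NF-κB sum was highest at 7 d in both classes, and the imprinted sum was highest at 7 d in both.

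Within members, 3278 genes outside the rule reached 50 CPM at 1 or more ages. Of these, 150 (4.58%) were at least 2-fold higher at 28 d than at 7 d and 204 (6.22%) at least 2-fold lower. The same 2-fold difference was met in the other Pdgfra+ cells by 119 of the 150 and 144 of the 204, while 3 and 8 went the opposite way there. CPM went up at every later age for 67 genes and down at every later age for 98. With 1 library per age no gene could be tested, and the genes named below were the largest of these in each direction.

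Dlk1 and Igf2, both imprinted, led the genes with less at each later age. Dlk1 came to 269, 30.4, 3.46, 1.43 and 0.212 CPM in members and 849.9, 414, 150.2, 29.4 and 8.11 CPM in other Pdgfra+ cells. Only 2 UMIs remained in members at 28 d, for a ratio of 7 d to 28 d of 1267 (95% CI 350.3 to 10469.6, counting error only). Igf2, the fetal growth factor, came to 65.7, 40.6, 11.03, 6.03 and 0.425 CPM in members and 50.6, 21.5, 7.14, 3.75 and 0.285 CPM in the other class. Members lay above the other class for Igf2, although at 28 d they held only 4 UMIs of it, and below the other class at every age for Dlk1. Cdkn1c, the cell cycle inhibitor p57, came to 1301, 543, 435, 309 and 149.8 CPM against 517, 204, 139, 108 and 68.6 CPM, and members were higher at every age (log2 fold between classes 1.49 ± 0.08, a call lost without the library as a block). H19, the non-coding RNA next to Igf2, held 2709.6, 2711, 1233, 394 and 77.9 CPM in members, with little between 7 and 14 d and a steep difference after. Of 11 genes of the imprinted list, all above 50 CPM at some age, 7 were at least 2-fold lower at 28 d and none higher. Over the 3278 genes, 6.22% were lower and 4.58% higher by this limit. The median log2 was -2.05 for the list against -0.13 over the 3278 genes. Meg3, Ndn, Gnas and Grb10 were within 2-fold. On GRCm38, H19 (ENSMUSG00000000031.16) lies on chromosome 7 from 142575529 to 142578143 and Igf2 (ENSMUSG00000048583.16) from 142650766 to 142666816.

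The other genes that were lower at each later age included matrix and signalling genes. Thbs1, thrombospondin-1, an activator of TGF-β, came to 229, 85.6, 37.4, 36.02 and 7.11 CPM in members against 285, 138, 58.8, 75.7 and 88.3 CPM in the other class. The log2 ratio of 28 d over 7 d was -5.01 in members and -1.69 in the other class. Cthrc1, a secreted protein of collagen-producing fibroblasts, came to 926, 671, 375, 238 and 144 CPM against 272, 112, 33.9, 50.3 and 61.1 CPM. Nrk, a Nik-related kinase, came to 449, 308, 181, 148 and 23.7 CPM, and Tnfrsf11b, the decoy receptor osteoprotegerin, to 64.4, 49.5, 16.6, 12.5 and 8.28 CPM against 7.61, 7.86, 2.52, 1.88 and 3.13 CPM. Members stood above the other class for Tnfrsf11b at every age. Mdk, midkine, a heparin-binding growth factor, Cdh11, a mesenchymal cadherin, and Crip2 had log2 ratios of 28 d over 7 d of -2.71, -2.27 and -2.20 in members and -2.12, -1.19 and -0.34 in the other class.

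The gene with the largest ratio among those with more at each later age was Il1r2. Il1r2, the decoy receptor for interleukin-1, came to 0.696, 0.966, 9.22, 34.4 and 215 CPM in members and 5.52, 5.91, 17.2, 33.6 and 76.02 CPM in other Pdgfra+ cells. Members were the lower class at 7, 14 and 18 d and the higher class at 28 d, and at 7 d they held 5 UMIs of it. C3, the central complement protein, came to 8.91, 16.5, 173, 366 and 929 CPM against 14.3, 45.6, 202, 515 and 992 CPM, with members the lower class at every age. Pla1a, a phosphatidylserine-specific phospholipase, came to 4.45, 14.01, 18.9, 32.7 and 139.9 CPM against 0.533, 2.02, 4.20, 12.6 and 55.1 CPM, with members higher at every age. Dpep1, a membrane dipeptidase, came to 46.5, 87.1, 229.6, 273 and 536 CPM against 117, 272, 466, 399.7 and 739 CPM, with members lower at every age. Cldn10, a claudin, Prkg2, a cGMP-dependent kinase, and Ms4a4d had log2 ratios of 4.34, 3.47 and 3.44 in members and 2.24, 3.86 and 2.66 in the other class.

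Irf7, Ifit1 and Sp100 are interferon-inducible genes. Irf7 came to 4.87, 7.25, 9.38, 15.2 and 63.6 CPM in members and 4.26, 4.04, 7.14, 12.2 and 28.9 CPM in the other class, and at 28 d was 4.19 times the next highest library in members. Ifit1 came to 7.38, 11.6, 17.4, 29.5 and 83.6 CPM against 8.56, 13.5, 7.98, 25.2 and 42.00 CPM. At 28 d its UMIs came from 144 of 578 members, and 5 cells gave 29.9% of them. Sp100, a nuclear body protein, came to 4.18, 16.5, 22.1, 38.4 and 55.5 CPM against 9.55, 24.5, 28.8, 45.7 and 59.4 CPM and had more at each later age in both classes. Of the complement list, 5 genes reached 50 CPM in members and all 5 were at least 2-fold higher at 28 d than at 7 d, beside 4.58% of all genes at that level. Summed over the list, members held 796, 1279, 1812, 1417 and 3117 CPM and the other class 1444, 3037, 3694, 3093 and 4909 CPM, so that both were highest at 28 d.

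**Figure D4:**
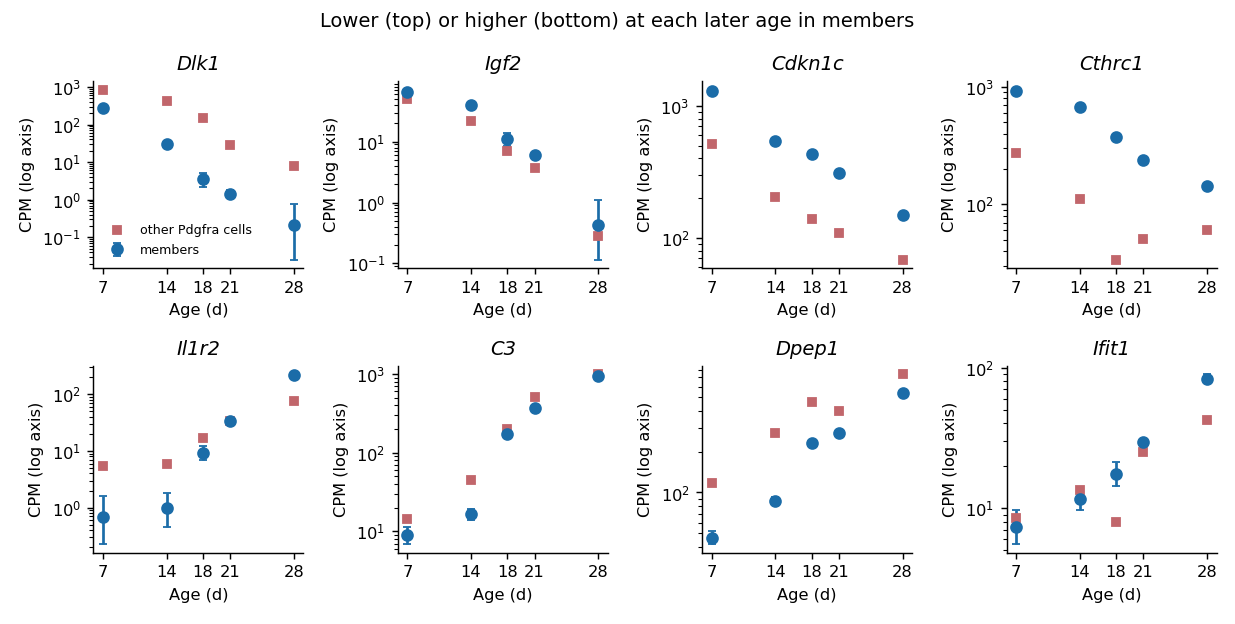
CPM (log y axis) of 8 genes against age (d) in members (circles, bars are 95% Poisson intervals of the counts) and other Pdgfra+ cells (squares), 1 library per age. In members Dlk1, Igf2, Cdkn1c and Cthrc1 had less at each later age, and Il1r2, C3, Dpep1 and Ifit1 had more.

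Several genes marked 1 library. At 7 d the leading genes were Icam1, Cxcl2, Gadd45b, Ier3 and Ccl2, of which Ccl2, a monocyte chemokine, came to 2837, 31.8, 15.97, 314 and 81.8 CPM in members and 2096, 62.2, 33.5, 267 and 51.8 CPM in the other class. All 5 are also known NF-κB or stress response genes and 7 d was their highest library in both classes. At 14 d Ccl5 led with 26.4, 138, 1.81, 3.91 and 9.24 CPM in members, but 1 cell gave 58.2% of its UMIs there and 5 cells 98.0%. Dact2, Prcp, Msi2 and Pofut1 followed at 14 d, at no more than 1.66 times the next library. At 18 d AY036118 came to 304, 528, 1178, 349 and 212 CPM in members and 293, 651, 1071, 273 and 121 CPM in the other class. It was followed by Arl4d, Rorb, Prdm8 and Calcrl at no more than 1.33 times the next library. At 28 d Igkc came to 5.29, 4.64, 9.88, 7.63 and 84.9 CPM and Cd74 to 11.8, 12.2, 11.7, 9.88 and 85.8 CPM in members, against 5.29, 5.01, 5.46, 13.7 and 101 and 20.2, 7.11, 6.72, 14.6 and 127 CPM in the other class. Both are genes of B cells and antigen presentation, and both were as high in the other Pdgfra+ cells.

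The 21 d library was marked by proliferation genes. Mki67 came to 18.9, 10.2, 9.05, 91.2 and 13.8 CPM in members and 46.4, 11.7, 7.70, 60.6 and 7.40 CPM in the other class, and Top2a to 30.6, 13.1, 19.3, 131 and 17.9 against 68.9, 21.5, 20.2, 79.6 and 10.96 CPM. At 5000 UMIs per cell, 6.88, 5.15, 3.46, 16.8 and 3.58% of members held at least 2 UMIs of 10 cycling genes (exact binomial 95% limits, 4.81, 3.59, 1.90, 15.3 and 2.20% below and 9.49, 7.12, 5.73, 18.4 and 5.48% above). The shares in other Pdgfra+ cells were 11.9, 4.30, 4.69, 11.4 and 2.63%, so that at 7 d the other class was the higher one and at 21 d the members were. Before thinning, the shares were 17.5, 14.5, 7.57, 40.3 and 13.8% in members, with the 21 d library also the deepest. Over the 5 libraries Mki67 did not pass the comparison of the 2 classes (log2 fold 0.08 ± 0.29, edgeR's quasi-likelihood adjusted p = 0.85). Fdps, an enzyme of cholesterol synthesis, was also highest at 21 d, with 24.2, 4.93, 4.44, 102 and 17.8 CPM in members and 42.3, 9.06, 5.60, 71.7 and 19.9 CPM in the other class. The small non-coding RNA Bc1 was highest at 21 d in both classes, at 57.03 CPM in members and 24.5 CPM in the other class. Birc5 was highest at 21 d in members, while the other class held 46.5 CPM at 7 d and 46.4 CPM at 21 d.

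Members varied among themselves in genes outside the rule. At 5000 UMIs per cell, 2485 genes outside the rule averaged at least 0.2 UMIs in each library, and their median lowest Fano factor over the libraries (variance over mean, 1 for counting noise) was 0.995. Ranked by the lowest value over the 5 libraries, genes near the top included Igfbp5 (13.1 to 19.7 over the libraries), Sparc (11.4 to 19.4), Eln (8.93 to 36.5), Fos (7.50 to 11.1), Mt1 (5.77 to 10.5) and Mfap5 (3.83 to 5.03). These are matrix, IGF-binding, immediate early and metallothionein genes. The ranking was not adjusted for abundance, and their means ran from 1.54 UMIs per cell (Mt1 at 14 d) to 158 (Sparc at 28 d). Malat1 (14.8 to 36.7) and Gm42418 (7.20 to 126) had high values too.

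Markers of other cell types were present in members at low levels. Summed over each list, members held 21.9, 11.6, 10.7, 15.2 and 27.2 CPM of 8 T cell genes, 33.96, 72.3, 75.7, 95.2 and 104 CPM of 6 B cell genes, 19.1, 17.9, 6.09, 14.6 and 16.5 CPM of 8 macrophage genes and 23.2, 10.5, 4.11, 6.81 and 9.56 CPM of 7 endothelial genes. In other Pdgfra+ cells the T cell genes held 29.2, 16.5, 14.7, 16.4 and 32.03 CPM and the B cell genes 26.02, 52.99, 42.4, 67.2 and 115 CPM. The macrophage genes held 14.04, 16.7, 8.82, 31.6 and 17.8 CPM there and the endothelial genes 25.9, 27.5, 21.7, 16.5 and 25.5 CPM. None of these lists exceeded 115 CPM in either class. Mural genes, 7 in all with Acta2 most abundant at 7 d, summed to 139.7, 19.8, 5.93, 8.19 and 23.4 CPM in members and 398, 208, 118, 50.1 and 43.3 CPM in the other class. Globin and erythroid genes, 5 in all with Hbb-bs most abundant at 7 d (1043 CPM), summed to 1615, 129, 507, 14.5 and 8.71 CPM in members and 1774, 49.2, 554, 301 and 6.98 CPM in the other class. Both classes were highest at 7 d, while at 21 d members lay well below the other class and at 14 d above it. Their part in the differences by age was not tested. A UMI of any of 20 defining markers of other types was seen in 48.3, 24.5, 17.3, 32.8 and 46.02% of members, and without these cells 511 genes were higher in members than in other Pdgfra+ cells and 820 lower. Of the members, 50 shared a barcode with a cell of another library, and in 4 of them that cell was a member too.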

How the data were processed

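Per the labels and the methods of the study, the authors aligned droplet 3′ single-cell libraries to GRCm38 (mm10) with Cell Ranger 3.1.0, removed doublets with Scrublet, and kept cells with 200 to 6000 genes and under 20% mitochondrial reads. The deposited file holds raw UMI counts per gene and cell for 46684 cells and 31053 genes, and its cells lie within these limits. No further doublet removal was run. Cells whose barcode was seen in another library were kept. The members, the rule and the gene lists were chosen with earlier results of these data known. The Fano ranking, the limit of 2 UMIs for cycling cells, thinning to 5000 UMIs, the 1.5-fold limit for genes that changed sides and the removal of cells with a defining marker were chosen after seeing the data.

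UMIs were summed per library and class and tested with edgeR 4.0.16 (quasi-likelihood, TMM, its default filter on low counts, library as a block) in R 4.3.3, with Benjamini-Hochberg adjustment over all genes tested. The scripts were tested on simulated data, where false calls made up more of the calls than the nominal 0.05 in all 3 comparisons and recovery of changed genes was lowest against F3-rule cells. With the library as a block, the p-values measure how the difference between classes varied over these 5 libraries, each a pool of 2 mice. Each library is another age, so they measure no spread between mice of 1 age. Named genes were the 12 with the largest fold in each direction among called genes that went the same way in all 5 libraries and reached a mean of 50 CPM in the higher class (6 for the ICAM1-rule and F3-rule comparisons), without symbols that start with Gm or end with Rik, the members of the lists, and, for ages, the 10 largest in each direction among genes whose CPM went one way over all ages and the 5 most marked per library. Malat1 and Gm42418 in the Fano ranking fall outside it. Alternatives were DESeq2 1.42.0, no filter on low counts, each library left out, no block, a depth band, other limits of the rule, and cells without markers of other types. Coordinates are from GENCODE M21. A few genes that meet the rule for named genes are not reported here.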

Additional observations from a re-analysis of the deposited data

Results flagged for a closer look

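For 9 genes of the lists the members lay at least 1.5-fold above the other Pdgfra+ cells at 1 age and at least 1.5-fold below them at another, on the log2(CPM + 1) scale. With 1 library per age these differences were not tested, and the value given is the span between the 2 log2 ratios. Igfbp3, an IGF-binding protein, came to 367 CPM in members against 72.4 CPM in the 7 d library, but to 119 against 348 CPM in the 21 d library, a span of 3.87. Fst, follistatin, an activin antagonist, came to 352 CPM in members against 156 CPM in the 7 d library, but to 185 against 338 CPM in the 28 d library, a span of 2.04. Cd44, the hyaluronan receptor, came to 306 CPM in members against 178 CPM in the 7 d library, but to 40.7 against 70.7 CPM in the 18 d library, a span of 1.56. Mki67, a proliferation marker, came to 13.8 CPM in members against 7.40 CPM in the 28 d library, but to 18.9 against 46.4 CPM in the 7 d library, a span of 2.07. Top2a, a topoisomerase of dividing cells, came to 131 CPM in members against 79.6 CPM in the 21 d library, but to 30.6 against 68.9 CPM in the 7 d library, a span of 1.85. Cdk1, the mitotic kinase, came to 54.2 CPM in members against 32.2 CPM in the 21 d library, but to 14.3 against 32.2 CPM in the 7 d library, a span of 1.85. Birc5, survivin, came to 72.03 CPM in members against 46.4 CPM in the 21 d library, but to 16.6 against 46.5 CPM in the 7 d library, a span of 2.06. Ccl2, a monocyte chemokine, came to 81.8 CPM in members against 51.8 CPM in the 28 d library, but to 15.97 against 33.5 CPM in the 18 d library, a span of 1.67. Il1r2, the interleukin-1 decoy receptor, came to 215 CPM in members against 76.02 CPM in the 28 d library, but to 0.696 against 5.52 CPM in the 7 d library, a span of 3.43.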

How the results depend on the processing

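Against the other Pdgfra+ cells, leaving out 1 library at a time gave 549 to 629 higher and 867 to 1080 lower genes, against ICAM1-rule cells 679 to 765 and 881 to 1014, and against F3-rule cells 739 to 849 and 854 to 915. Without a filter on low counts, 1534 and 1445 genes were lower against the first 2 classes. Without cells holding 2 or more UMIs of other types, 376 were higher and 544 lower against other Pdgfra+ cells, 544 were lower against ICAM1-rule cells, and Ctgf turned from lower to a log2 fold of 0.23 there. That setting left 2 libraries for F3-rule cells. Ccnb1 against F3-rule cells, with a log2 fold of -0.08 and no call, came to 1.97 without the 7 d library and -1.10 without the 21 d library. Without the library as a block, 506 genes were higher and 771 lower against other Pdgfra+ cells, and 39 calls among named and list genes were lost. The block pairs members with the compared cells of the same library, and ages, with 1 library each, could not be paired.

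The member share at 21 d was 50.4% after thinning to 8000 UMIs and 56.1% with a collagen limit of 4%. With D at least 3 times I and F, the shares were 16.3, 34.8, 36.0 and 47.8% up to 21 d and 48.5% at 28 d. Without cells holding 2 or more UMIs of other types the 7 d share was 26.3%, the 14 d share 44.4%, and those of the 2 oldest libraries 49.1 and 57.0%, while without cells with a defining marker the 2 youngest had 21.2 and 40.1%. The cause of these changes was not tested. With 1 library per age, counting depth limits only genes of few UMIs, and the spread between mice of one age was not measured.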

Other observations

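Genes beside Fdps and Ifit1 were looked up after the values of these 2 had been seen, and are given as values with no test. Of 7 other genes of cholesterol synthesis and its control, 5 had their highest member level at 7 d and 2 (Sqle and Sc5d) at 21 d, so that the peak of Fdps at 21 d was not shared by most. Hmgcs1, which makes a precursor of cholesterol, held 97.98, 27.5, 23.2, 83.98 and 24.2 CPM in members and 175, 67.5, 48.7, 99.4 and 31.7 CPM in other Pdgfra+ cells. The 7 d and 21 d libraries were the high ones in both classes for Hmgcs1.

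All 8 other interferon-inducible genes looked up had their highest member level at 28 d. Ifi27l2a held 186, 423, 631, 1294 and 1728 CPM in members and 51.2, 161, 348, 1163 and 1077 CPM in the other class. Bst2, tetherin, which holds viruses at the cell surface, held 98.8, 102, 133, 232 and 363 CPM in members and 64.9, 56.4, 60.9, 153 and 193 CPM in the other class, with members higher at every age.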
